A study of Mus musculus with 2 samples.

Results

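Fibroblasts that carried transcripts of a small set of matrix-remodelling genes made up 188 of the 22352 cell barcodes in 2 single-cell libraries of mouse pancreas. A barcode was taken when it held at least 1000 unique molecular identifiers (UMIs, 1 per captured transcript), at most 25% mitochondrial UMIs, and at least 1% of its UMIs from Col1a1, Col1a2, Col3a1 and Dcn. It also had to hold at least 3 UMIs summed over Tnc, Cthrc1, Postn and Acta2. Barcodes with 3 or more UMIs of Pi16, Dpp4 and Sema3c (adventitial fibroblast genes) were left out. So were those with over 1 UMI of the leukocyte gene Ptprc, over 3 UMIs of Msln, Upk3b, Lrrn4, Upk1b and Gpm6a (mesothelial genes), or 0.1% or more from the neutrophil genes Csf3r, Cxcr2 and Mmp9. The set held 31 of 8845 barcodes in the CP+EVs library and 157 of 13507 in the CP library. The cells were thus chosen by their measured UMIs of these genes in both libraries, so the levels of the selection genes, and the set beside other fibroblasts, are given as a description.

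The CP+EVs library came from pancreas treated with Cae and extracellular vesicles (EVs), and the CP library from pancreas treated with Cae alone. The 2 libraries share the Cae treatment, and the label for their condition is acute pancreatitis, although the study is titled as one of chronic pancreatitis, with vesicles obtained after exercise. The sources used here do not state strain, age, doses, times or how many animals went into each library. Each group is 1 library, so no difference between them has a replicate check and no test was made: the values compare 2 libraries, and any difference between the animals, dissociations or runs cannot be told apart from the treatment.

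Tissue fibroblasts become matrix-remodelling cells when an organ is injured. Periostin (Postn) and tenascin C (Tnc) are matricellular proteins, which sit in the matrix and bind cells and other matrix proteins rather than building fibres. Cthrc1 is a secreted glycoprotein made by activated fibroblasts, Acta2 encodes the smooth muscle actin of myofibroblasts and mural cells, and Col1a1 encodes a chain of type I collagen. In injured pancreas such cells are known to arise from stellate cells and other fibroblasts and to lay down the scar.

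The genes of the rule lie at separate places of the mouse genome (GRCm38, GENCODE vM21 annotation): Postn on chromosome 3 at 54361109 to 54391037 (plus strand), Tnc on chromosome 4 at 63959785 to 64047015 (minus), Cthrc1 on chromosome 15 at 39076932 to 39087121 (plus), Acta2 on chromosome 19 at 34241090 to 34255590 (minus) and Col1a1 on chromosome 11 at 94936224 to 94953042 (plus). The sequences around annotated start sites are shown for 3 of the 4 matrix-remodelling selection genes, since these genes define the cells. Where a gene had more than 1 listed start site, only the window that holds the letters marked below is shown. Cthrc1 had no entry in the table used. Each window runs from 100 bases before the start site to 20 bases into the transcript, 5′ to 3′ on the gene's own strand, from RefSeq on GRCm38.p6. Capitals mark the letters TATATAA.
Postn, chr3:54361007-54361126, plus strand: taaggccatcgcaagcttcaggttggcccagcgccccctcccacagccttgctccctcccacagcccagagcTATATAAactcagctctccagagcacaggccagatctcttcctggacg
Tnc, chr4:64046917-64047036, minus strand: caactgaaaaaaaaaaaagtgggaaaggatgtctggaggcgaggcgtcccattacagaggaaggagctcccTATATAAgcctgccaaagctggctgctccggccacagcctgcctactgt
Acta2, chr19:34255354-34255473, minus strand: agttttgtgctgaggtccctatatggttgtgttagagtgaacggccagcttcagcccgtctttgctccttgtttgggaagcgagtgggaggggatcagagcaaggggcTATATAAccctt
The capitals begin 28 bases before the start site in Postn, 29 bases before it in Tnc and 8 bases after it in Acta2. These letters were chosen after the windows had been viewed. Searched on both strands, they occurred in 490 of the 32851 windows of the same length in the table (1.49%). A second listed start site of Postn and one of Tnc lack them, and their windows are not shown. For Tnc, the start site not shown (window chr4:64046996-64047115) is the one at the gene end given above. Among genes described below, the window of Cilp holds them and those of Thbs4, Aspn and Mmp3 do not. A match describes letters and is not a binding site, and no match says only that these letters are not in that window.

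The 2 libraries held 38532775 UMIs (CP+EVs) and 51652425 UMIs (CP). The gated cells had medians of 5933 UMIs and 2334 genes in CP+EVs, and of 6457 UMIs and 2388 genes in CP, so their depth was close. They carried fibroblast transcripts throughout: 11 fibroblast genes outside the rule summed to 37605 CPM (UMIs per 1000000 UMIs of the summed cells) in CP+EVs and 35114 CPM in CP, every gated cell held some, and no gene of the 11 was at 0. Acinar and leukocyte transcripts were present below their library-wide level. The acinar enzyme list summed to 19013 CPM in CP+EVs cells and 106 CPM in CP cells, which was 14.8% and 20.1% of the level over the whole library. The neutrophil list summed to 33.1 CPM in CP+EVs and 864 CPM in CP (16.9% and 12.9% of the library level), and the macrophage list to 464 CPM and 1332 CPM (10.8% and 10.7%). The endothelial list summed to 99.3 CPM in CP+EVs (13 of 31 cells) and 42.5 CPM in CP (23 of 157 cells), 24.99% and 90.7% of the library level, with Pecam1 at 1 UMI in each library's gated cells. The ductal list summed to 89.9 and 44.9 CPM (30.3% and 27.4%), with Krt19 at 0 UMIs in CP+EVs and 1 in CP. Since the rule limits Msln, Upk3b, Lrrn4, Upk1b and Gpm6a, their levels say nothing of mesothelial cells. The 9 other mesothelial genes summed to 1656 CPM in CP+EVs (30 of 31 cells) and 1773 CPM in CP (146 of 157 cells), 90.7% and 144% of the library level. Most of that sum was Efemp1, at 1334 and 1249 CPM, while the keratin gene Krt8 was at 0 in both. The part of other cell types in the results below was not tested. Of the barcodes, 118 were found in both libraries, and 1 gated cell in CP+EVs and 2 in CP were among them.

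Against the label of the set, the cells were led by Postn and held little of the other selection genes, above all in CP+EVs. They are therefore called Postn-led fibroblasts below. In CP+EVs, Postn was found in 31 of 31 cells and gave 188 of the selection UMIs (94.9%). Tnc was found in 1 cell (6 UMIs), Cthrc1 in 3 cells (4 UMIs) and Acta2 in none. In CP, Postn was found in 148 of 157 cells and gave 920 of the selection UMIs (70.3%). Tnc was found in 32 cells (162 UMIs, of which 43 came from a single cell), Cthrc1 in 54 cells (160 UMIs) and Acta2 in 18 cells (67 UMIs). As summed levels, Postn stood at 889 CPM in CP+EVs and 725 CPM in CP, Tnc at 28.4 and 128 CPM, Cthrc1 at 18.9 and 126 CPM, and Acta2 at 0 and 52.8 CPM. A count of 0 in 211382 UMIs allows up to 3 UMIs, or 14.2 CPM, of Acta2 in CP+EVs.

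The overlap of the selection genes follows in part from the rule, which chose cells by their sum. Of 32 CP cells with Tnc, 31 also held Postn, and 50 of 54 with Cthrc1 did so, close to the 148 of 157 over all CP cells. Tnc and Cthrc1 met in 12 cells, Tnc and Acta2 in 7, and Cthrc1 and Acta2 in 8 of the 18 cells with Acta2. A single selection gene was found in 27 of 31 CP+EVs cells and 83 of 157 CP cells, 2 genes in 4 and 57 cells, 3 genes in 0 and 13 cells, and all 4 in 0 and 4 cells. Of the 9 CP cells without Postn, 6 had 2 or more Acta2 UMIs.

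**Figure D1:**
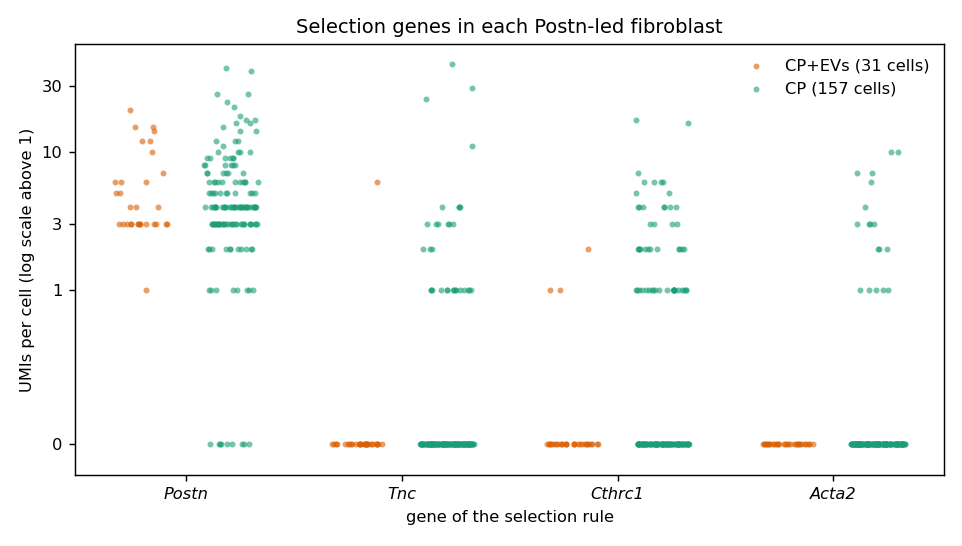
UMIs per cell (vertical axis, log scale above 1) of the 4 selection genes in each Postn-led fibroblast, with 31 CP+EVs cells left of 157 CP cells for every gene. Postn spreads over both libraries, while Tnc has a single CP+EVs cell above 0 and Acta2 has none.

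The cut of 3 UMIs passes through a continuous range. In CP+EVs, 14 cells stood at exactly 3 selection UMIs and 29 fibroblasts just missed at 2, with medians of 5.84 and 4.26 selection UMIs per 10000. In CP, 34 cells stood at 3 UMIs and 79 at 2, with medians of 7.65 and 8.80 per 10000. The cells just outside the cut in CP had fewer UMIs (median 2274, against 3976.5 just inside).

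Of 15 mural genes, 11 were at 0 in CP+EVs and 3 in CP, yet the list summed to 147 CPM in CP+EVs (16 of 31 cells) and 180 CPM in CP (78 of 157 cells), 230% and 314% of the library level. The other fibroblasts had 177 and 160 CPM. Pdgfrb, a receptor gene that fibroblasts share with mural cells, gave 18 of the UMIs in CP+EVs and 79 in CP. Over the 31 CP+EVs cells, Rgs5, Cspg4, Notch3, Myh11, Kcnj8 and Abcc9 were all at 0. Over the 157 CP cells, Rgs5 was at 0, Myh11 had 1 UMI, Notch3 2 and Cspg4 6, while Kcnj8 had 21 and Abcc9 59, subunits of a potassium channel typical of pericytes; Acta2 had 67. Of the CP cells, 10 held 3 or more UMIs of these 6 genes. Acta2 was found in 2 of the 10 and Postn in 8.

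Postn-led fibroblasts were a smaller share of the collagen-expressing cells in CP+EVs than in CP. They were 31 of 1493 collagen-gated fibroblasts in CP+EVs (2.08%, 95% interval 1.42 to 2.93) and 157 of 1499 in CP (10.5%, 8.97 to 12.1). Intervals are exact (Clopper-Pearson for shares, Poisson for levels, conditional binomial for ratios) and cover counting error only. The adventitial gate worked against membership, and it took more cells in CP+EVs: 717 fibroblasts passed the adventitial gate alone in CP+EVs and 209 in CP. A further 188 and 277 cells passed both gates (12.6% of fibroblasts in CP+EVs and 18.5% in CP). With the cells of both gates joined in, the shares were 14.7% and 29.0%.

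Depth also differed outside the set, since other fibroblasts (under 3 UMIs in both gates) had a median of 3119 UMIs in CP+EVs and 1542.5 in CP. When every cell was thinned to 1000 UMIs before the rule was applied, the Postn-led share was 22 of 1653 cells in CP+EVs (1.33%, 0.836 to 2.01) and 86 of 1959 in CP (4.39%, 3.53 to 5.39). With the fibroblasts of the full rule thinned, a Postn UMI was found in 11.99% of collagen-gated fibroblasts in CP+EVs and 23.02% in CP, against 0.826% and 1.53% of leukocyte barcodes, which should lack the gene. Unthinned median depths were 5870 and 2774 UMIs for the gated fibroblasts and 4332 and 3061 UMIs for the leukocyte barcodes. Cthrc1 was found in 0.603% of thinned fibroblasts in CP+EVs and 4.34% in CP, above the leukocyte background of 0.0750% and 0.285%. Tnc was found in 0.067% of thinned fibroblasts in CP+EVs (1 cell) and 1.401% in CP, against 0.038% (1 barcode) and 0.326% of leukocyte barcodes. In CP+EVs these counts are too few to set Tnc apart from background. Unthinned, Tnc was found there in 6 of 1493 fibroblasts (0.402%) and 4 of 2665 leukocyte barcodes (0.150%). Acta2 was found in 0.134% and 1.601% of thinned fibroblasts, close to the 0.113% and 1.71% of leukocyte barcodes. The part of free RNA in the Acta2 of fibroblasts was not tested.

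**Figure D2:**
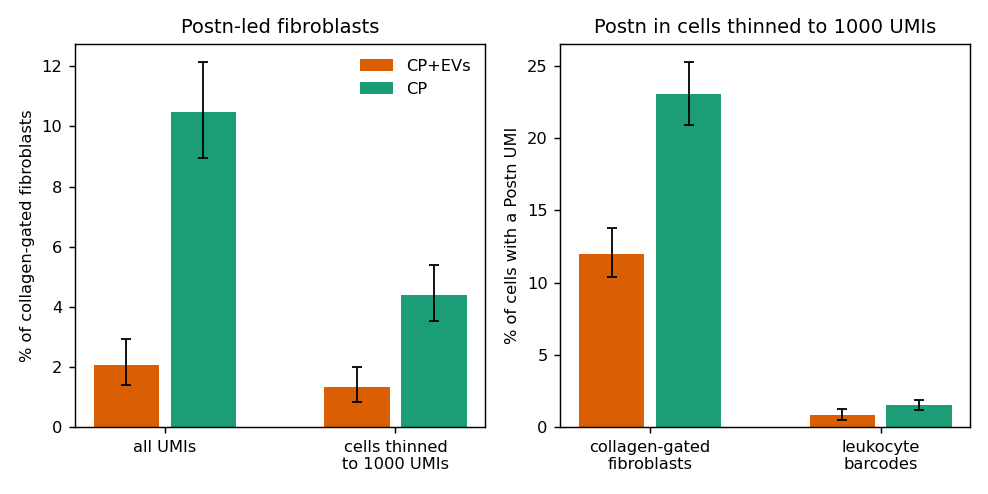
Left, Postn-led fibroblasts as a percentage of collagen-gated fibroblasts, with all UMIs and after thinning each cell to 1000 UMIs; right, the percentage of thinned cells with a Postn UMI in those fibroblasts and in leukocyte barcodes. Bars show CP+EVs left of CP with exact 95% intervals for counting error; the CP+EVs share is the lower one in both left pairs (2.08% and 10.5%, 1.33% and 4.39%).

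Between the libraries, summed UMIs of the Postn-led cells were compared as CPM, and a gene counted as measured with 20 CPM in 1 library and 20 UMIs in all. Of 6694 measured genes, 1607 were at least 1.5-fold higher in CP+EVs (24.0%) and 1387 at least 1.5-fold lower (20.7%), with a median log2 ratio of 0.05. Those shares are the background for the gene groups below. The CP+EVs levels rest on 211382 UMIs and those of CP on 1269236. All 15 measured acinar enzyme genes were higher in CP+EVs (median log2 ratio 7.42). The trypsinogen gene Prss2 was at 875 CPM in CP+EVs and 4.73 CPM in CP, or 16.1% and 22.1% of its library level, and the part of free RNA in these genes was not tested. The rankings given below leave out acinar enzyme and Reg genes, mitochondrial, haemoglobin, immunoglobulin and ribosomal protein genes, unnamed gene models and the genes of the rule, and they take genes with at least 100 CPM in 1 group and 100 UMIs in the sum.

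The lowest ranked ratios were those of acute-phase proteins, Saa3 and Lcn2. Saa3, serum amyloid A3, an acute-phase protein made by inflamed fibroblasts, was at 0 CPM in CP+EVs and 2508 CPM in CP, where 124 of 157 cells held it. Measured against a floor of 3 UMIs it was at least 177-fold lower in CP+EVs. Lcn2, an iron-binding acute-phase protein, was at 0 CPM in CP+EVs and 407 CPM in CP (81 cells), at least 28.7-fold lower in CP+EVs. The other fibroblasts had the same order, with Saa3 at 5.87 CPM in CP+EVs and 4368 CPM in CP, and Lcn2 at 5.87 and 790 CPM. Saa3 was also found in 23.7% of thinned CP leukocyte barcodes, against 54.6% of thinned CP fibroblasts, and the part of free RNA in its CP level was not tested.

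Of 20 measured inflammatory and acute-phase genes, 2 were at least 1.5-fold higher in CP+EVs and 14 lower, with a median log2 ratio of −0.87. Ptx3, a soluble pattern-recognition protein, stood at 75.7 CPM in CP+EVs and 541 CPM in CP (6.94-fold lower, 4.37 to 12.6). Il6 stood at 591 and 931 CPM. On the other side, the transcription factor gene Cebpd was at 1589.5 CPM in CP+EVs and 566 CPM in CP. The inflammatory genes thus leaned to CP without all doing so.

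Of 13 measured chemokines, 3 were higher and 10 lower in CP+EVs (median −1.48). Ccl2, which draws monocytes, was at 18.9 CPM in CP+EVs and 329 CPM in CP (15.4-fold lower, 6.73 to 64.0). It was found in 3 of 31 CP+EVs cells and 54 of 157 CP cells, and with the cells of both gates joined in, its log2 ratio was −0.67 instead of −3.95. Cxcl5, a neutrophil chemoattractant, was at 0 and 122 CPM, but 38.1% of its 155 CP UMIs came from a single cell. Cxcl12 stood at 293 and 823 CPM and Cxcl1 at 677 and 1656 CPM. Ccl11, the eosinophil chemokine eotaxin, went the other way, at 506 CPM in CP+EVs and 162 CPM in CP.

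Cxcl9 had the highest ratio of the genes ranked, yet it rested on a single cell. It stood at 516 CPM in CP+EVs and 23.6 CPM in CP, a log2 ratio of 4.43. Of its 109 CP+EVs UMIs, 97.2% lay in 1 of the 3 cells that held it, and without that cell the log2 ratio was −0.50. The interferon-gamma-induced genes as a list leaned towards CP+EVs by smaller amounts. Of 17 measured, Cxcl9 included, 8 were higher and 1 lower (median 0.54), among them Irf1 at 255 CPM in CP+EVs and 103 CPM in CP and Iigp1 at 473 and 133 CPM, with 54.0% of the Iigp1 UMIs of CP+EVs in a single cell. Type I interferon-stimulated genes split: of 27 measured, 5 were higher and 8 lower (median −0.34). Ifi207 was at 624 CPM in CP+EVs and 176 CPM in CP and Ifi204 at 837 and 327 CPM, whereas Oasl2 was at 80.4 and 150.5 CPM and Isg15 at 0 and 19.7 CPM. Sting1, the cytosolic DNA-sensing adaptor named in the study's title, had 14.2 CPM in CP+EVs (3 UMIs) and 44.9 CPM in CP (57 UMIs).

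Timp1, an inhibitor of matrix metalloproteinases, was at 89.9 CPM in CP+EVs and 975 CPM in CP, 10.6-fold lower (6.92 to 18.1). It was found in 10 of 31 CP+EVs cells and 120 of 157 CP cells. Its relatives went the other way. Timp2 was at 3487 CPM in CP+EVs and 1241 CPM in CP, and Timp3 at 118 and 25.2 CPM. Of 24 measured matrix-degrading enzymes, 3 were higher and 8 lower: the aggrecanase gene Adamts5 stood at 927 CPM in CP+EVs and 336 CPM in CP, while its relative Adamts4 stood at 99.4 and 321 CPM and the gelatinase gene Mmp2 at 1060 and 1768 CPM.

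The collagens of the rule and the basement membrane collagens stood in opposite order. The rule's own collagens were lower in CP+EVs: Col1a1 stood at 8440 CPM in CP+EVs and 20683 CPM in CP, Col1a2 at 8837 and 15953 CPM and Col3a1 at 15025 and 26358 CPM. Col1a1 was also found in 13.8% of thinned leukocyte barcodes in CP+EVs and 41.4% in CP. The part of free RNA in these levels was not tested. Dcn, decorin, the proteoglycan that coats collagen fibres, was at 12608 CPM in CP+EVs and 6383 CPM in CP. Outside the rule, Col4a1, a chain of the network collagen of basement membranes, was at 2938 CPM in CP+EVs and 862 CPM in CP (3.41-fold higher, 3.08 to 3.77), and its partner Col4a2 at 1542 and 607 CPM. Of the 4 measured fibrillar collagens outside the rule, 1 was higher in CP+EVs and 1 lower (median −0.33), so the lower order was that of the rule's collagens. Of the 11 measured non-fibrillar collagens, 6 were higher in CP+EVs and 1 lower (median 0.62). Lama2, a laminin chain of the same membranes, stood at 577 CPM in CP+EVs and 134 CPM in CP.

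Of 24 measured genes that fold, process and crosslink collagen, 12 were lower in CP+EVs, 1 was higher and the rest lay within 1.5-fold (median −0.48). Serpinh1, the collagen chaperone HSP47, was at 1301 CPM in CP+EVs and 3294 CPM in CP (2.53-fold lower, 2.24 to 2.87). Lox, which crosslinks collagen, stood at 889 and 1841 CPM, and Plod2, which hydroxylates its lysines, at 180 and 509 CPM. Genes of folding and secretion in the endoplasmic reticulum had 2 higher and 13 lower of 24 (median −0.63), with the chaperone gene Calr at 998 CPM in CP+EVs and 2713 CPM in CP. The other fibroblasts had 3 higher and 13 lower of the same list (median −0.64). Over all 7014 genes measured in the other fibroblasts, 959 were higher in CP+EVs and 1290 lower.

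Among the matricellular and adhesive glycoproteins outside the rule, 8 were higher and 9 lower of 29 measured (median 0.04). Smoc2, a calcium-binding matrix protein, was at 487 CPM in CP+EVs and 137 CPM in CP. Sparcl1 was at 1613 and 682 CPM and Fbln5, which organises elastic fibres, at 497 and 173 CPM. Elastin itself (Eln) was at 516 CPM in CP+EVs and 803 CPM in CP, and Ccn4, a secreted Wnt-induced protein, at 14.2 and 81.9 CPM.

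TGF-beta genes lay on both sides. Ltbp4, which holds latent TGF-beta in the matrix, was at 459 CPM in CP+EVs and 60.7 CPM in CP (7.55-fold higher, 5.55 to 10.3), found in 26 of 31 and 51 of 157 cells. Ltbp1 was at 227 and 81.2 CPM. The ligand gene Tgfb2 was at 28.4 CPM in CP+EVs and 173 CPM in CP, and Lrrc32, which presents latent TGF-beta at the cell surface, at 4.73 and 64.6 CPM. Inhba, an activin subunit, was at 0 and 95.3 CPM. The CP UMIs of Inhba lay in 13 cells, 32.2% of them in a single cell. Over the list, 9 were higher and 7 lower of 26 measured (median −0.29).

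Activated-fibroblast genes outside the rule had 3 higher and 10 lower of 21 (median −0.44). Adam12 stood at 56.8 CPM in CP+EVs and 147 CPM in CP, Runx1, a transcription factor gene of fibroblast activation, at 47.3 and 166 CPM, and Sfrp1, a secreted Wnt antagonist, at 298 and 671 CPM. The activation genes thus leaned to CP with exceptions. Aspn, asporin, a small leucine-rich proteoglycan that binds TGF-beta, went the other way at 388 and 183 CPM. Contractile genes had 1 higher and 6 lower of 17 (median −0.41), with Tpm1 at 189 CPM in CP+EVs and 372 CPM in CP and Myh9, non-muscle myosin, at 66.2 and 181 CPM. Wnt and Hedgehog genes had 2 higher and 8 lower of 11 (median −1.16), where Wnt5a was at 175 CPM in CP+EVs and 89.8 CPM in CP and Sfrp2 at 14.2 and 78.8 CPM.

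Lpl and Penk, among the 10 highest ranked ratios, were found in nearly every CP+EVs cell. Lpl, lipoprotein lipase, was at 3264 CPM in CP+EVs and 785 CPM in CP (4.16-fold higher, 3.77 to 4.59), found in 31 of 31 and 115 of 157 cells. Penk, proenkephalin, was at 2323 and 518 CPM (4.49-fold higher, 3.98 to 5.05), found in 30 of 31 and 101 of 157 cells. Pcsk6, a proprotein convertase, was at 378 CPM in CP+EVs and 47.3 CPM in CP, and Inmt, an N-methyltransferase, at 222 and 14.97 CPM. Of 16 genes of the universal fibroblast state outside the rule, 8 were higher and 3 lower (median 0.53), with Gsn, the actin-severing protein gelsolin, at 8336 CPM in CP+EVs and 2438 CPM in CP. Among growth factors, Igf1 stood at 1055 CPM in CP+EVs and 2451 CPM in CP, Vegfd at 161 and 543 CPM, and the receptor gene Egfr at 729 and 240 CPM.

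Chl1, a neural adhesion molecule, was at 33.1 CPM in CP+EVs and 659 CPM in CP, found in 3 and 107 cells, and 5 of its 7 CP+EVs UMIs lay in a single cell. Emb, embigin, was at 0 CPM in CP+EVs and 104 CPM in CP (61 cells). S100a9 and S100a8, neutrophil calprotectin subunits, were at 0 and 14.2 CPM in CP+EVs and at 296 and 258 CPM in CP, and Tyrobp, a myeloid adaptor, at 9.46 and 139 CPM. In the CP cells, S100a9 stood at 13.0% and Tyrobp at 12.4% of the level over the whole CP library, close to the neutrophil and macrophage lists given above, and the part of free RNA in them was not tested.

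The other fibroblasts stood in the same order for most of these genes. There, Penk was at 1797 CPM in CP+EVs and 491 CPM in CP, Lpl at 2962 and 565 CPM, Ltbp4 at 438 and 60.9 CPM, Timp1 at 46.1 and 604 CPM, Ccl2 at 73.2 and 222 CPM, and Col4a1 at 1942 and 567 CPM. Sfrp1 had the other order there, at 797 and 540 CPM, and Inhba was low in both, at 8.13 and 13.0 CPM. The genes below also kept their order where the mix of selection genes was held fixed. Among cells whose single selection gene was Postn (27 in CP+EVs, 76 in CP), Lpl was at 3032 CPM in CP+EVs and 698 CPM in CP, Penk at 2424 and 626 CPM, Ltbp4 at 465 and 77.5 CPM, Timp1 at 33.2 and 494 CPM, Saa3 at 0 and 2926 CPM and Col4a1 at 2772 and 757 CPM.

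**Figure D3:**
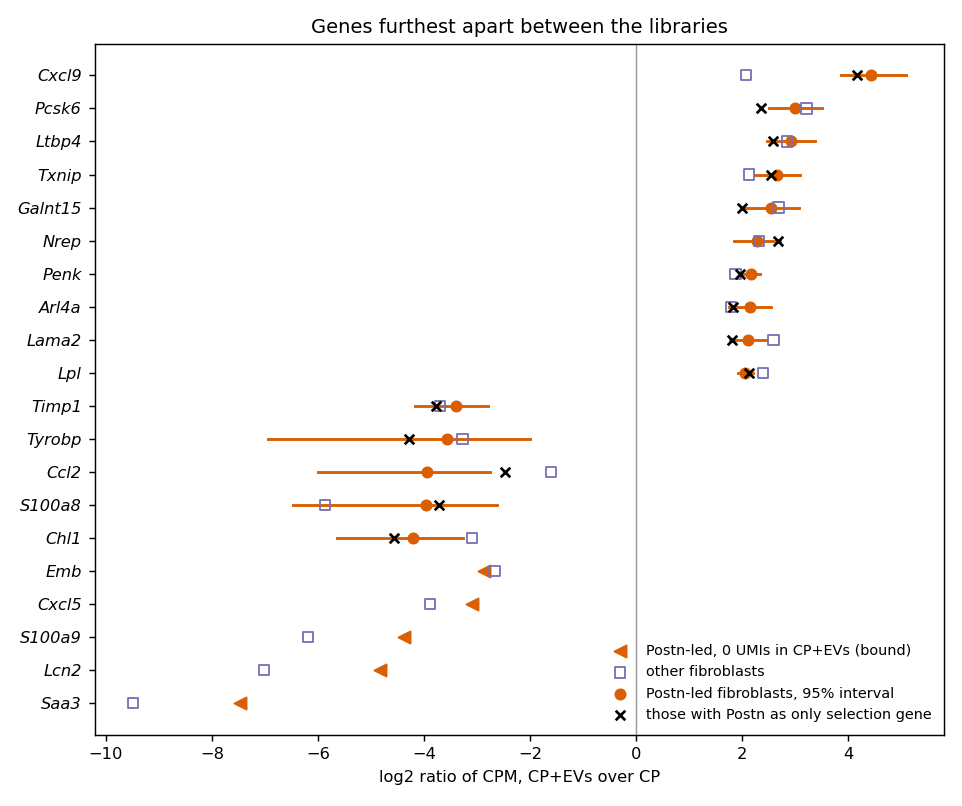
Log2 ratio of CPM, CP+EVs over CP (horizontal axis), for the 10 highest and 10 lowest ranked genes in Postn-led fibroblasts (acinar enzymes and the other groups named above left out), with exact 95% intervals for counting error, beside the other fibroblasts (squares) and the cells with Postn as only selection gene (crosses). Triangles mark bounds for genes at 0 UMIs in CP+EVs; Cxcl9 at the top rests on 1 cell, and Saa3 at the bottom is at least 177-fold lower in CP+EVs.

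Within a library, the Postn-led cells were set beside the other fibroblasts. In CP+EVs, 1134 of 6739 measured genes were at least 1.5-fold higher (16.8%) and 913 lower (13.5%). In CP, 338 of 6775 were higher (4.99%) and 732 lower (10.8%). The rule used the collagens and the selection genes of these same cells, so the comparison is a description.

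In CP+EVs, Mmp3, the metalloproteinase stromelysin 1, had the highest ranked ratio, at 473 CPM in the Postn-led cells and 90.8 CPM in the other fibroblasts (5.23-fold, 4.06 to 6.66). Only 5 of 31 cells held it, and 30 of its 100 UMIs lay in a single cell. Aspn was at 388 CPM and 117 CPM, in 14 of 31 cells. Gas7, a cytoskeletal regulator, was at 497 and 182 CPM, in 23 cells. Fn1, fibronectin, was at 2611 and 1414 CPM. The lowest were the membrane protein genes Tmem176a (33.1 and 187 CPM) and Tmem176b (80.4 and 326 CPM), the neuropeptide gene Nmb (18.9 and 108 CPM) and the chemokine Cxcl14 (114 and 516 CPM). Of 12 measured chemokines 1 was higher and 6 lower, and of 18 interferon-gamma-induced genes 1 was higher and 8 lower. The chemokine Cxcl9 was the 1 higher interferon-gamma-induced gene, with a log2 ratio of 1.85. As 97.2% of its UMIs lay in a single cell, it was at −3.08 without that cell.

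In CP, Thbs4, thrombospondin 4, an adhesive glycoprotein of tendon and injured tissue, had the highest ranked ratio, at 211 CPM in the Postn-led cells and 27.6 CPM in the other fibroblasts (7.61-fold, 5.84 to 10.1), found in 31 of 157 cells. Ncam1, neural cell adhesion molecule, was at 119 and 23.5 CPM, and Ptn, the growth factor pleiotrophin, at 172 and 44.6 CPM. Cilp, a matrix protein that binds TGF-beta, was at 893 and 243 CPM in 101 of 157 cells. Aspn was at 183 and 51.5 CPM in 59 cells. Cxcl14 was at 268 and 67.8 CPM in 33 cells, with 37.9% of its UMIs in a single cell.

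Of the matrix lists counted in CP, those of collagens had the largest share of genes higher in the Postn-led cells. In CP, 8 of 11 non-fibrillar collagens were higher and none lower (median 0.75), 3 of 4 fibrillar collagens outside the rule were higher, and 10 of 20 activated-fibroblast genes outside the rule were higher and 1 lower (median 0.57). Of 29 matricellular genes outside the rule 10 were higher and 3 lower (median 0.39), of 13 proteoglycans 6 and 1 (median 0.49), of 24 collagen-folding and crosslinking genes 3 and 0 (median 0.39), and of 24 matrix-degrading enzymes 4 and 1 (median 0.22). In CP+EVs, 3 of 12 non-fibrillar collagens were higher and 3 lower (median 0.46), and 7 of 20 activated-fibroblast genes were higher and 6 lower (median 0.42). There, of 4 fibrillar collagens outside the rule 0 were higher and 1 lower (median 0.37), and of 13 proteoglycans 1 and 2 (median 0.24). Of 25 matricellular genes outside the rule 7 were higher and 4 lower, of 24 collagen-folding and crosslinking genes 4 and 2, and of 23 matrix-degrading enzymes 6 and 1. The difference between the libraries was not tested. Col8a1, a short-chain collagen gene, was higher in both, at 132 and 61.9 CPM in CP+EVs and at 75.6 and 17.4 CPM in CP. The lowest named genes in CP included genes of leukocytes. Ctss, cathepsin S, was at 132 CPM in the Postn-led cells and 495 CPM in the other fibroblasts, and the integrin gene Itgam at 52.8 and 189 CPM. Also among the lowest was Cxcl13, a chemokine that draws B cells, at 86.7 and 386 CPM. A single cell gave 30.9% of its UMIs in the Postn-led cells. The macrophage list summed to 1332 and 3459 CPM and the neutrophil list to 864 and 1830 CPM in the same cells, and the other fibroblasts were also shallower; the part of either in these ratios was not tested.

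Within CP, the cells that held Tnc differed from those without it, in part by genes also higher in Cthrc1 or Acta2 cells (given below). Of the 157 cells, 17 had 2 or more Tnc UMIs and 125 had none. Their median depths were 11525 and 6322 UMIs, so the levels are given as CPM of the summed UMIs. Thbs4 was at 767 CPM in Tnc cells and 52.2 CPM in cells without Tnc (14.6-fold, 10.6 to 20.7), found in 11 of 17 and 15 of 125 cells. Ncam1 was at 414 and 41.8 CPM, in 13 of 17 and 20 of 125 cells. Ptn was at 476 and 83.6 CPM and Fbn2, fibrillin 2, at 445 and 79.4 CPM. Thy1, a surface glycoprotein of fibroblasts, was at 322 and 64.8 CPM. Col15a1 was at 2700 and 805 CPM, and Cilp at 1928 and 603 CPM. Inhba was at 307 and 63.7 CPM, but 65.0% of its UMIs in Tnc cells came from a single cell. Each of these genes except Inhba (6 cells) was found in at least 11 of the 17 Tnc cells. A single cell still gave 33.3% of the Ptn UMIs and 34.5% of the Fbn2 UMIs in Tnc cells, and the share for Thbs4 lay between these. The highest cell gave 22.2% for Ncam1, 19.3% for Col15a1, 19.1% for Cilp and 17.5% for Thy1. The interval of Thbs4 covers counting error only and leaves out this spread between cells.

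The same Tnc cells held less Saa3, Hp and Ly6c1. Saa3 was at 394 CPM in Tnc cells and 3207 CPM in cells without Tnc, found in 14 of 17 and 96 of 125 cells. Leukocyte barcodes of CP held 553 CPM, and the part of free RNA in the Saa3 of Tnc cells was not tested. Hp, haptoglobin, was at 20.5 and 292 CPM, and Ly6c1 at 143 and 1364 CPM. Prg4, lubricin, was at 0 and 108 CPM. At the level of single cells, 22 of the 31 CP cells with Thbs4 also held Ncam1 and 16 also held Tnc. Thbs4, Ncam1, Cxcl14 and Ptn were all found in 8 cells, 7 of which held Tnc. In CP cells whose single selection gene was Postn, Thbs4, Ncam1 and Cxcl14 were not above the other fibroblasts, with log2 ratios of −0.12, −0.74 and −0.61.

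**Figure D4:**
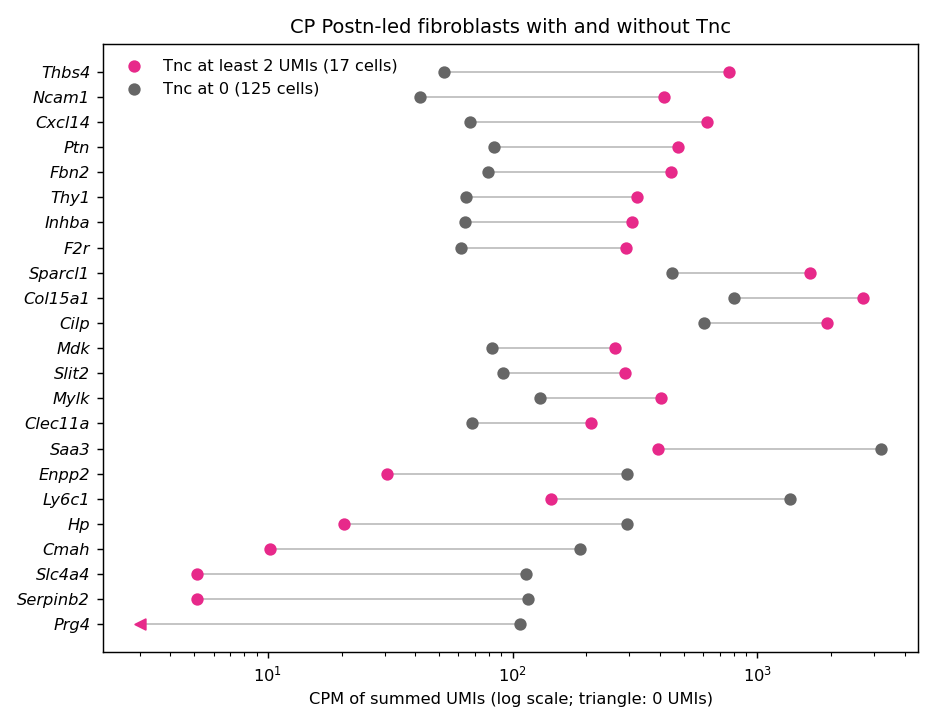
CPM of summed UMIs (horizontal axis, log scale) in the 17 CP Postn-led cells with 2 or more Tnc UMIs and the 125 with none, for the genes furthest apart; the triangle marks 0 UMIs. Thbs4 at the top stands at 767 and 52.2 CPM, and Saa3 among the lowest at 394 and 3207 CPM.

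Cells with Cthrc1 and cells with Acta2 were described in the same way, each at 2 or more UMIs of its gene. Of the 32 Cthrc1 cells so taken, 3 held an Acta2 UMI, and 4 of the 13 Acta2 cells held a Cthrc1 UMI. Of the 13 Acta2 cells, 5 had 2 or more Tnc UMIs, and 8 of the 32 Cthrc1 cells held a Tnc UMI. Some genes of the Tnc cells were higher here too. Thbs4 was at 501 CPM in Cthrc1 cells and 135 CPM in cells without Cthrc1, and at 519 and 156 CPM for Acta2. Fbn2 was at 284 and 116 CPM and Cilp at 1432 and 676 CPM for Cthrc1, and Ncam1 at 318 and 84.2 CPM for Acta2. A single cell gave 58.8% of the Thbs4 UMIs in Acta2 cells. The 32 CP cells with 2 or more Cthrc1 UMIs, set beside the 103 with none, had Gdf10, a BMP-family ligand, at 1016 and 337 CPM, Gas6, a ligand of the TAM receptors, at 352 and 105 CPM, and Mgp, matrix Gla protein, at 2242 and 913 CPM. Saa3 was at 426 and 2791 CPM and Lcn2 at 107 and 482 CPM. The 13 cells with 2 or more Acta2 UMIs, set beside the 139 with none, had Timp1 at 2738 and 723 CPM (11 of 13 and 106 of 139 cells) and Ccn4 at 263 and 56.4 CPM (10 and 35 cells). A single Acta2 cell gave 35.0% of the Timp1 UMIs of the 13, and a single cell 27.9% of their Ccn4 UMIs. The Acta2 cells had little Ly6c1, at 36.7 and 1333 CPM, and little Efemp1, a fibulin, at 110 and 1470 CPM. Their median depth was 16939 UMIs, against 6240. Enpp2, autotaxin, which makes lysophosphatidic acid, was at 1338 and 68.9 CPM, but only 4 of the 13 held it, with 52.5% of its UMIs there in a single cell. All 4 lacked Postn, and they were 4 of the 5 CP cells with 5 or more Enpp2 UMIs.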

How the data were processed

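Single pancreas cells were captured on BD Rhapsody and read in pairs of 150 bp, per the labels' protocols. The submitters' processing notes name CASAVA 1.8, UMI-tools, Seurat and mm10. The authors deposited raw UMI counts for 31253 features, which were used as deposited; doublets were not removed and no caller was run. The members and gene lists were chosen with earlier results of these data known. UMIs were summed over the cells of each library and scaled to CPM. Ratios had 0.5 counts added. Genes were named by rule: the selection genes, the 10 highest and 10 lowest ratios between libraries, the 8 highest and 4 lowest within each library (100 CPM in 1 group and 100 UMIs in the sum), the members of each list furthest apart, and defining markers of other cell types; all but the first and last leave out genes of the rule, acinar enzyme, Reg, mitochondrial, haemoglobin, immunoglobulin and ribosomal protein genes and unnamed gene models. Subsets by selection gene, and other list members, were described after their values were seen. With 1 library per group no test was run. The ratios and their intervals were tried on simulated sums with known fold changes. Those sums were drawn with counting error only, so spread between cells was not covered. Alternatives were 13 planned and 5 chosen after seeing the data. Python 3.11.15, numpy 2.4.6, scipy 1.17.1, pandas 2.3.3 and matplotlib 3.10.9 were used.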

Additional observations from a re-analysis of the deposited data

Results flagged for a closer look

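For 3 genes, the Postn-led cells stood above the other fibroblasts in one library and below them in the other; the difference between the libraries was not tested. Cxcl14 had a log2 ratio of −2.15 in CP+EVs and 1.98 in CP. In CP, 37.9% of its UMIs lay in a single cell, without which the ratio was 1.32, and in cells with Postn as only selection gene it was −0.61. Cdkn1c, a cyclin-dependent kinase inhibitor gene, had −1.36 in CP+EVs and 1.55 in CP, and −0.62 in CP when cells were thinned to 1000 UMIs. Smoc2 had −0.93 in CP+EVs and 1.03 in CP; it stood at 487 CPM in Postn-led and 934 CPM in other fibroblasts of CP+EVs, and at 137 and 67.0 CPM in those of CP.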

How the results depend on the processing

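Shares of Postn-led cells are given as CP+EVs then CP, and counts of genes as higher then lower, between libraries or, within CP+EVs or CP, in Postn-led over other fibroblasts. With at least 2 selection UMIs the shares were 4.02% and 15.7%, and 745 genes were higher in CP+EVs Postn-led cells than in other fibroblasts; with at least 5 they were 0.871% and 6.14%. Thinned cells gave 1.33% and 4.39%, a mesothelial list median of 0.19 between libraries, a Postn ratio of −0.32 and Cdkn1c at −0.62 in CP. With at least 2000 UMIs per cell the CP share was 14.4% and 439 genes were lower in CP. A collagen share of 5% gave 5.15% and 15.7%, 534 higher and 507 lower in CP+EVs, Tnc at 0.069 between libraries, and in CP+EVs Cxcl9 at −0.48, Smpd3 at −0.17, Rif1 at −0.65 and the acinar list at 0.46. Means of per-cell CPM gave 635 and 1158 in CP and Postn at −0.26. A minimum of 100 CPM and 100 UMIs gave 408 and 391 between libraries, 176 and 132 in CP+EVs, and 75 and 116 in CP. With no filter these were 5140 and 2718, 5183 and 2392, and 2309 and 4790, with the mesothelial list at 0.10; at 2-fold they were 758 and 774, 415 and 412, and 79 and 338. The next alternatives were chosen after seeing the data. Cells of 3000 to 12000 UMIs gave a CP share of 18.1%, 630 genes higher in CP and the cell cycle list at 0.12 in CP+EVs. Cells with Postn alone gave a CP share of 5.07%, 531 higher in CP, Tnc and Cthrc1 at 1.55 between libraries (0 UMIs in both) and CP Cxcl14 at −0.61, Thbs4 at −0.12 and Ncam1 at −0.74. Joining the cells of both gates gave 14.7% and 29.0%, 921 higher between libraries, 462 higher and 563 lower in CP+EVs, Postn at −0.089 and Mmp3 at −0.022 in CP+EVs. Without its highest cell, Cxcl9 was at −0.50 between libraries and −3.08 in CP+EVs. The cause of these shifts was not tested. Of 414 recomputed ratios of the 23 named genes between libraries, 370 stayed within the counting interval of the reported value and 7 changed sign; of 204 ratios of 12 genes within CP+EVs 163 did and 5 changed sign, and of 204 of 12 genes within CP 138 and 4. The 211382 UMIs of the CP+EVs cells limit precision.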
